A study of Saccharomyces cerevisiae with 6 samples.

Results

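The regions described here are 20 bp bins of arm chromatin that lie between 2 genes pointing at each other, at which cleavage by MNase-tagged Rec8 differed between ctf19-9A and wild-type (WT) yeast. A bin was taken when its middle fell in a convergent intergenic gap of the R64 annotation, more than 500 bp from any tRNA gene, more than 20 kb from a chromosome end and more than 50 kb from the centromere. Chromosomes I, III and VI were left out, as was a stretch of the right arm of XV with negative bins. The rule kept 1810 of the 14224 bins of the authors' deposited table, and they lay in 294 gaps on 13 chromosomes.

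Rec8 is the kleisin subunit of meiotic cohesin, the ring complex that keeps sister chromatids joined and shapes the axis of meiotic chromosomes. In budding yeast, cohesin is known to gather between convergent genes on the arms and around centromeres, where the kinetochore recruits the cohesin loader. The kinetochore protein Ctf19 binds that loader through phosphorylated residues near its N terminus, and ctf19-9A is an allele that changes phosphorylation sites there.

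The study compared 3 ctf19-9A cultures with 3 WT cultures. All were diploids with Rec8-3xFLAG-MNase and with ndt80-delta, the lack of NDT80 holding them in meiotic prophase I. WT therefore means wild type at CTF19 only, since all 6 carried the tagged Rec8 and the ndt80 deletion. Each culture started from the colony of a separate zygote, and the background is labelled X and Y without further explanation. Cells spent about 16 h in YP acetate and 4.5 h in 1% potassium acetate, and then had 5 min of 2 mM CaCl2, the calcium that starts cleavage by micrococcal nuclease (MNase) in the ChEC-seq assay. The recorded temperature was 30 °C for all 6 cultures. The authors' deposited table gives, per bin, a false discovery rate, p-value and log2 fold change of the genotype comparison, and nothing for a single culture. Depth is thus unknown, the values of each culture cannot be shown, and no test over cultures was made here. Which genotype is on top of the fold change is not stated. The likely numerator is ctf19-9A, since Ctf19 brings the loader to centromeres and 303 of the 341 listed convergent bins within 10 kb of a centromere are negative. With WT on top every direction below swaps.

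All 1810 convergent arm bins were positive, which with ctf19-9A as numerator is more Rec8 cleavage in ctf19-9A than in WT. Their median log2 fold change was 0.53, a 1.45-fold difference, with quartiles of 0.49 and 0.59, a range of 0.38 to 0.84 and a median standard error (SE, implied by the p-value) of 0.161. Over all 8648 positive bins of the table the median was 0.55 with a median SE of 0.17. The 6753 listed arm bins of all classes under the same limits were also all positive, so the sign is not particular to convergent sites. The sign is in part fixed by the rule, because the stretch of XV that was left out held 24 convergent bins inside all other limits, and these were negative. They lay between SFL1 and ARP8, with values of -0.77 to -0.51. Only bins that passed the authors' false discovery rate of 0.05 are listed, so these medians overstate the change of an average convergent site.

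Listed bins made up 11.4% of the 15876 positions of 20 bp in convergent arm sequence, against 1.47% of the 459331 positions of all arm sequence under the same limits. They were 26.8% of the 6753 listed arm bins in 3.46% of the arm sequence. The last p-value and false discovery rate imply that 154927 bins entered the authors' adjustment, fewer than the 459331 arm positions. Of these 154927 bins, 9.18% were called and 5.58% were called positive. How many convergent bins were among those tested is unknown, so 11.4% is a share of sequence and not of tests. With a false discovery rate under 0.01, 427 convergent bins were left, or 2.69% of their positions, against 0.262% of all arm positions. Tandem gaps, between genes pointing the same way, had 2.87% of positions listed, and divergent gaps, with promoters on both sides, had 1.33%. The part of genes nearer their 3′ end had 1.42% and the part nearer the 5′ end 0.21%. The convergent share was the higher one on 13 of 13 chromosomes against each of these 4 classes. These shares describe annotated sequence, and no test of the difference was made, since the table has no values per culture.

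The convergent site with the smallest adjusted p in the authors' deposited table lay between RPA190, the largest subunit of RNA polymerase I, and YOR342C, of unknown function, on XV, with a log2 fold change of 0.77 (966081 to 966100; SE 0.156, adjusted p 8.6e-05). That gap of 684 bp had 12 of its 34 positions listed, most of them on the RPA190 side. SIR4, a silencing protein, and PCF11, a factor of mRNA 3′ end cleavage, enclose a gap of 278 bp on IV whose best bin had 0.79 in the authors' deposited table (921721 to 921740; SE 0.165, adjusted p 0.000181). Listed bins there ran on for 67 bp into SIR4 and 235 bp into PCF11. GIS1, a transcription factor of nutrient limitation, meets the mismatch repair gene MSH6 at 639824 to 640108 on IV, and the authors' deposited table gave 0.73 there (SE 0.153, adjusted p 0.000176) with 12 of 14 positions listed.

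Other sites with a small adjusted p lay beside genes of varied roles. HLR1, a cell wall gene, and QCR7, a subunit of respiratory complex III, enclose 307 bp on IV in which all 15 positions were listed, and the best bin of the authors' deposited table had 0.83 (1496021 to 1496040; SE 0.172, adjusted p 0.000162). Listed bins continued for 157 bp into HLR1 and not into QCR7. ALG12, a mannosyltransferase of N-glycan assembly, meets the stress kinase gene SSK2 on XIV, where 9 of 12 positions were listed and the authors' deposited table had a best value of 0.68 (adjusted p 0.000151). GAS1, for a glucan-remodelling enzyme, and PSE1, for a nuclear import receptor, had 13 of 14 positions listed and 0.67 in the authors' deposited table (XIII, adjusted p 0.000183). In the authors' deposited table UBP7/GUT2 on IX had 0.68 over 17 of 23 positions, where GUT2 encodes a glycerol-3-phosphate dehydrogenase. ERG25/ADE6 on VII, a sterol and a purine synthesis gene, had 0.69 there over 15 of 19 positions, and RGA1/ADE2 on XV had 0.80 over 10 of 14. CDC60, for leucyl-tRNA synthetase, and PET20 on XVI had 0.75 in the authors' deposited table, with 17 of 32 positions listed.

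**Figure D1:**
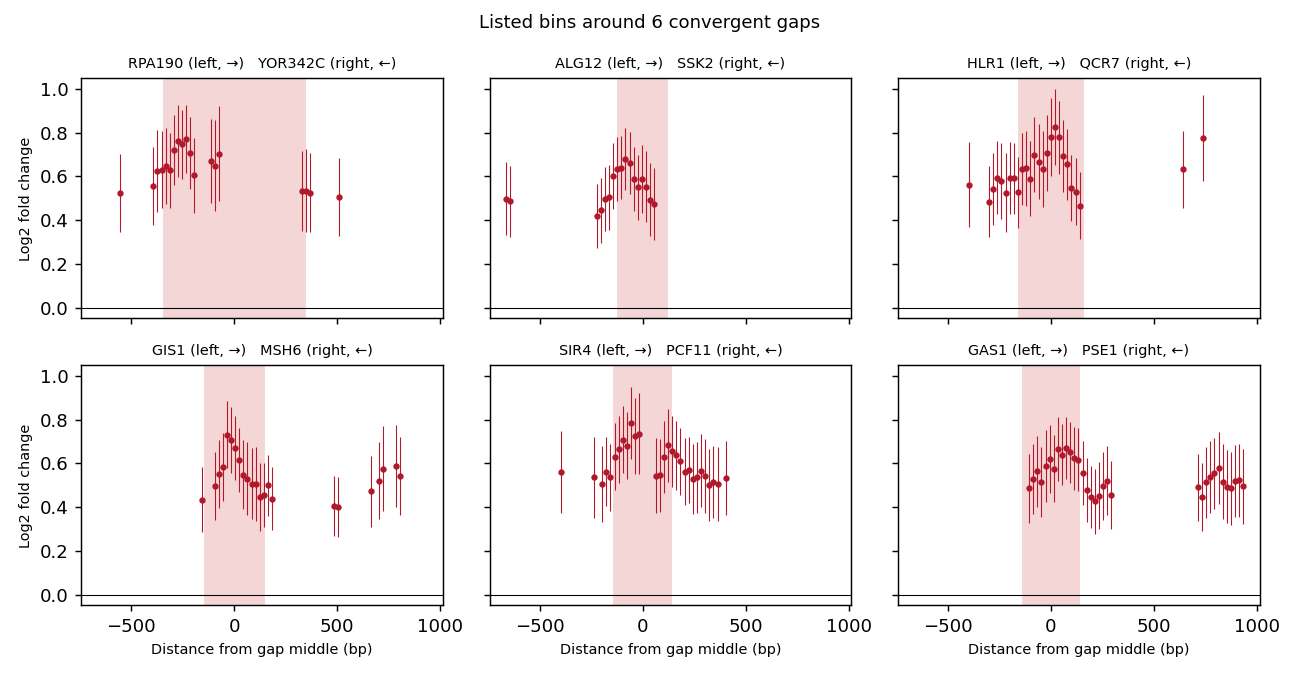
Log2 fold change (y axis, points, with bars of 1 implied SE) of every listed bin within 1000 bp of the middle of 6 convergent gaps (x axis, bp), those with the smallest adjusted p apart from the gap between rRNA genes. Shading marks the gap, the left gene points right and the right gene points left. All points are positive and the highest lie in the gap, as at HLR1/QCR7 with 0.83. The gaps were chosen by a bin inside them, which in part fixes where the highest point lies. HLR1/QCR7 also has a point of 0.78 outside its gap.

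Further gaps were named for a small adjusted p, a large best value or the best bin of a chromosome. ESP1 encodes separase, the protease that cleaves cohesin, and meets ASK10 on VII in a gap of 430 bp with 15 of 21 positions listed and a best value of 0.61 in the authors' deposited table (SE 0.133, adjusted p 0.000344). UBP8, the deubiquitinase of the SAGA complex, and MRE11, a nuclease of meiotic double-strand break repair, enclose a gap on XIII with 0.80 in the authors' deposited table (SE 0.181, adjusted p 0.000789) and 7 of 22 positions listed. SLY1/RVB1 on IV, where RVB1 encodes an ATPase of chromatin remodelling complexes, had 0.78 in the authors' deposited table with 7 of 10 positions. The largest log2 fold change of any best bin in the authors' deposited table was 0.84, between the vacuolar carboxypeptidase gene CPS1 and TOH1 on X, at an adjusted p of 0.00176. PIG2/AGE2 on IX and VMA16/RPN1 on VIII had best values of 0.79 and 0.80 in the authors' deposited table, with 7 of 8 and 12 of 12 positions listed. VMA16 and RPN1 encode subunits of the vacuolar ATPase and of the proteasome.

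The gaps with the most bins were not those with the largest fold changes. URA1/OXP1 on XI held the most, 25 of 33 positions, with a best value of 0.59 in the authors' deposited table (adjusted p 0.00216). TOM1, for a ubiquitin ligase, and HEH2, for a protein of the inner nuclear membrane, enclose 458 bp on IV in which all 23 positions were listed. The touching bins there covered 760 bp, the longest such run at a convergent gap, and reached 196 bp into TOM1 and 106 bp into HEH2, with a best value of 0.61 in the authors' deposited table. NOP4/SSN3 and RRP9/YPR137C-B on XVI had 23 and 24 bins with best values of 0.63 and 0.58 in the authors' deposited table. YOR142W-B/THI80 on XV had 24 bins and 0.68 there. YOR142W-B and YPR137C-B are open reading frames of Ty retrotransposons, which exist in many copies. The gap between RDN5-1 and ETS2-2 in the rDNA of XII held 23 bins with a median of 0.47 and a best value of 0.67 in the authors' deposited table (adjusted p 0.000122), and reads of many rDNA copies can fall there. Without that gap 1787 bins remained, with a median of 0.53. Without it and the 5 gaps with bins beside a gene over 1 kb with a letter-suffixed systematic name, as the Ty frames named here have, 1714 remained, again with 0.53. That name rule left in YML045W/RRN11 and IOC4/YMR045C, with 4 bins each. YML045W and YMR045C have the same length as YOR142W-B, 5269 bp, so the 1714 bins may include others beside Ty frames. The best site of II was PEX32/SSE2 with 0.76 and that of V was BCK2/CCA1 with 0.69, both in the authors' deposited table.

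Most convergent gaps held no listed bin. Of the 1183 gaps with a position inside all limits, 294 (24.9%) held at least 1, against 368 of 2296 tandem gaps (16.0%) and 124 of 1227 divergent gaps (10.1%). A gap with bins held a median of 5, with quartiles of 2 and 9. A single bin was found in 50 gaps, 64 gaps held 10 or more, and those 64 accounted for 900 bins (49.7%). In 23 gaps at least 90% of the positions were listed. Touching bins formed a single run in 169 gaps (57.5%), and in 139 (47.3%) a run went more than 10 bp into a flanking gene. The median of the bins within a gap ranged from 0.39 to 0.78 over the 294 gaps. The best bin of a gap had a median of 0.57 and a false discovery rate under 0.01 in 98 gaps (33.3%).

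Gaps with a listed bin were longer, with a median of 282 bp (quartiles 201 and 402 bp), than gaps without, at 193 bp (126 and 296 bp). A longer gap has more positions at which a bin can be listed. The share of positions is free of that, and it was 2.87% in convergent gaps of up to 100 bp, 7.99% from 101 to 200 bp, 14.5% from 201 to 300 bp, 13.4% from 301 to 500 bp, 12.2% from 501 to 1000 bp and 6.26% in the 21 longer ones. Convergent gaps of 201 to 300 bp held a bin in 30.5% of cases, against 16.5% of tandem and 8.33% of divergent gaps of that length.

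Gaps with listed bins were flanked by longer genes, a property that the choice of bins did not use. The summed length of both flanking genes had a median of 3486 bp for gaps with bins and 2368 bp for gaps without, and it was the larger one on 13 of 13 chromosomes. When all 1183 gaps were put in 4 groups of about equal size by this length, 11.1% of the group with the shortest genes held a bin, then 15.9%, 26.4% and 46.0% of the group with the longest genes (over 3648 bp). The order was the same within gaps of up to 200 bp, where the shares ran 4.83%, 9.8%, 16.9% and 26.1%, and within gaps of 201 to 500 bp, where they ran 15.8%, 20%, 33.1% and 55.6%. It held for the longer gene of the pair, with 8.78% in the lowest and 43.4% in the highest group. For the shorter gene the 2 lowest groups had 15.9% and 14.5% and the highest had 44.7%.

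At tandem gaps the summed length gave no such order, with shares of 15.1%, 17.5%, 18.3% and 13.2%. Taken singly, the gene that ends at a tandem gap was longer where bins were listed, with a median of 1478 bp against 1143 bp, and the gene that starts there was shorter, with 933 bp against 1287 bp. At divergent gaps, where both genes start, the summed length was 1918 bp with bins and 2598 bp without, the opposite order to convergent gaps. Whether gene length itself or expression, coverage or another property that goes with it is related to the listed bins was not tested.

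**Figure D2:**
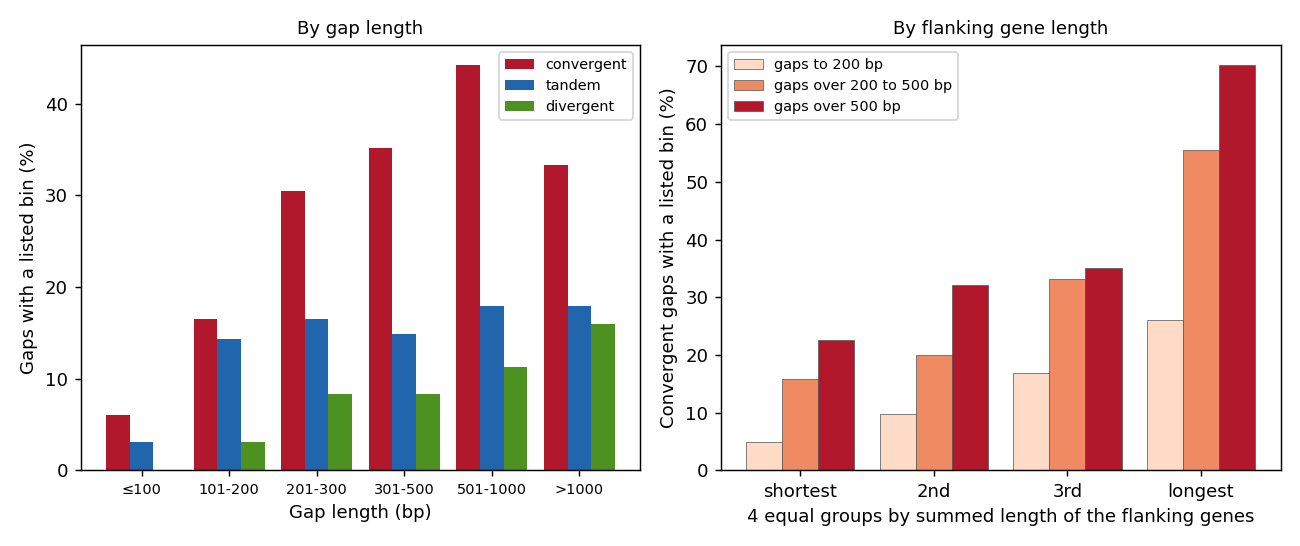
Left, percent of gaps with a listed bin (y axis) by gap length in bp (x axis) for convergent, tandem and divergent arm gaps; right, the same percent for convergent gaps in 4 groups of increasing summed length of the flanking genes, split by gap length. Bars are counts with no error bar; in every length group on the right the highest bar is that of the longest genes, such as 55.6% for gaps of 201 to 500 bp.

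Within the gap, listed bins lay at nearly all distances from the gene ends. The central zone that holds 33.3% of the positions of these gaps held 37.6% of the bins, and the bins had a median distance of 89 bp to the nearer gene end, against 90 bp for all positions of the same gaps. The best bin lay within 50 bp of the gap middle in 123 of 294 gaps (41.8%), a zone that takes up much of a short gap. The central zone with 33.3% of the positions held 34.7% of the best bins. The best bin was on the left side in 142 gaps and on the right in 152, and on the side of the longer gene in 135. Around the gap middle, listed bins fell off with distance into the genes. Averaged over all 1183 gaps, 10.8% of positions in the 100 bp left of the middle and 11.2% in the 100 bp right of it were listed, and 2.06% and 2.35% at 900 to 1000 bp. The same windows around tandem gap middles had 4.06% and 4.13%, and around divergent ones 1.50% and 2.02%.

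**Figure D3:**
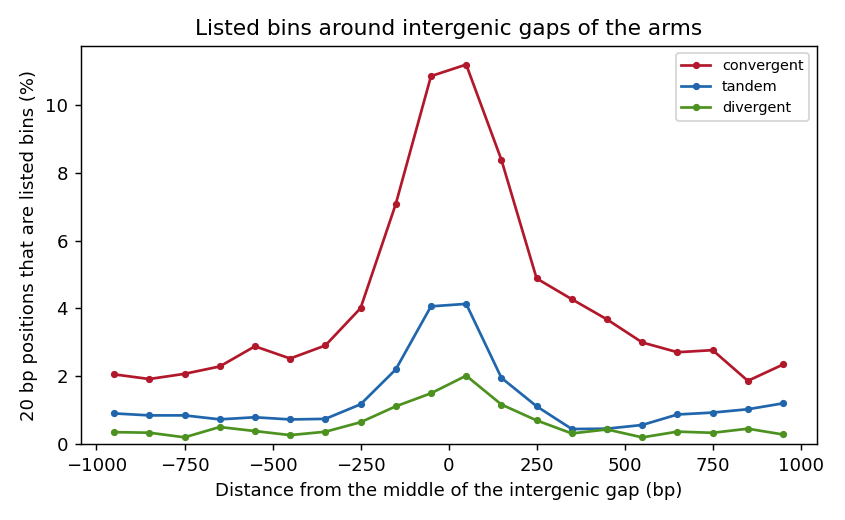
Percent of 20 bp arm positions that are listed bins (y axis) in windows of 100 bp around the middle of convergent, tandem and divergent gaps (x axis, bp). The convergent line peaks at 11.2% next to the gap middle, above the 4.13% of tandem and 2.02% of divergent gaps.

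Listed bins in genes lay close to convergent gaps more often than gene sequence does. Of 2463 listed arm bins in the part of a gene nearer its 3′ end, 1427 (57.9%) lay within 300 bp of a convergent arm gap, where 18.9% of such gene positions lie. The share of positions listed was 4.34% there and 0.735% in the remaining 3′ parts of genes. Those remaining parts pool gene ends at tandem gaps with sequence deeper inside genes. Closeness to a convergent gap was thus not told apart from closeness to any gene 3′ end. Of the 2463, 1214 (49.3%) lay within 300 bp of a gap that itself held a convergent bin, where 4.83% of such gene positions lie. Runs that extend out of a gap with bins fix part of that count.

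Over all SEs, convergent bins had a lower median fold change and a lower median SE than bins of other intergenic classes. Their median of 0.53 stood against 0.61 for tandem and 0.64 for divergent bins, and it was the lower one on 13 of 13 chromosomes in both cases. Of convergent bins 4.42% exceeded 0.7, against 22.2% of tandem and 26.4% of divergent bins, and the highest values were 0.84, 1.23 and 1.09. The median SE was 0.161 for convergent, 0.187 for tandem and 0.196 for divergent bins. The authors' threshold ties the smallest value that can be listed to its SE, and the median ratio of value to SE was 3.23 in convergent, 3.23 in tandem and 3.18 in divergent bins. Among bins with an SE of 0.14 to 0.16, which were 42.2% of the convergent ones, the medians were 0.50 for convergent, 0.49 for tandem and 0.52 for divergent bins. The order of convergent and tandem bins turned in that range and in no other that held both. With an SE of 0.12 to 0.14 the medians were 0.46, 0.48 and 0.46, from 101, 35 and 3 bins. Among bins with an SE of 0.16 to 0.18 the medians were 0.54, 0.55 and 0.54. They were 0.59, 0.62 and 0.62 with an SE of 0.18 to 0.20, and 0.66, 0.70 and 0.69 with an SE of 0.20 or more. These differences were not tested. Bins in the 3′ part of genes were close to convergent ones, with a median of 0.52 and an SE of 0.165.

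**Figure D4:**
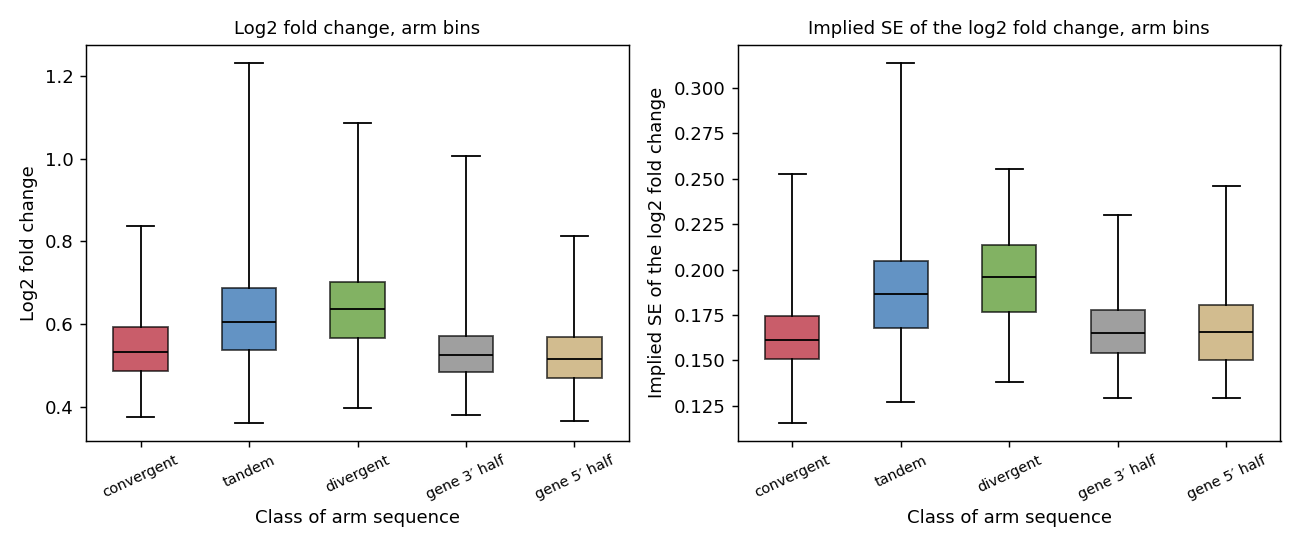
Log2 fold change (left) and its implied SE (right) of listed arm bins in 5 classes of sequence; boxes show quartiles and median, and whiskers the full range. Convergent bins have the lowest median SE, 0.161, and a highest value of 0.84, against 1.23 in tandem gaps.

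Along the arms the share of gaps with bins differed little with distance from the centromere. A bin was found in 26.0% of the gaps at 50 to 100 kb from the centromere, 26.7% at 100 to 200 kb, 23.9% at 200 to 400 kb and 24.0% beyond. The medians of the bins in these zones were 0.52, 0.52, 0.53 and 0.55. By distance from the chromosome end the shares were 30.7% at 20 to 50 kb, 26.1% at 50 to 100 kb, 23.3% at 100 to 200 kb and 24.4% farther in. Gaps with bins followed each other at a median of 25.4 kb (quartiles 15.7 and 38.4 kb), intervals across the centromere included. The next convergent gap also held a bin in 50 of 292 cases (17.1%), against 24.9% of all gaps.

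Chromosomes differed in the share of convergent positions that were listed. It was 15.6% on IX, 15.2% on XI and 14.7% on IV, and lowest on VIII, with 6.14%, and X, with 8.42%. Chromosome XI had bins in 24 of 58 gaps (41.4%) and VIII in 9 of 52 (17.3%). The medians of the bins were less spread, from 0.51 on XI and X to 0.57 on VIII, whose bins also had the highest median SE, 0.178. Over the 13 chromosomes the share of positions did not follow chromosome length, with a Pearson's r of 0.09 and a Spearman's rho of -0.09 as a description.

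**Figure D5:**
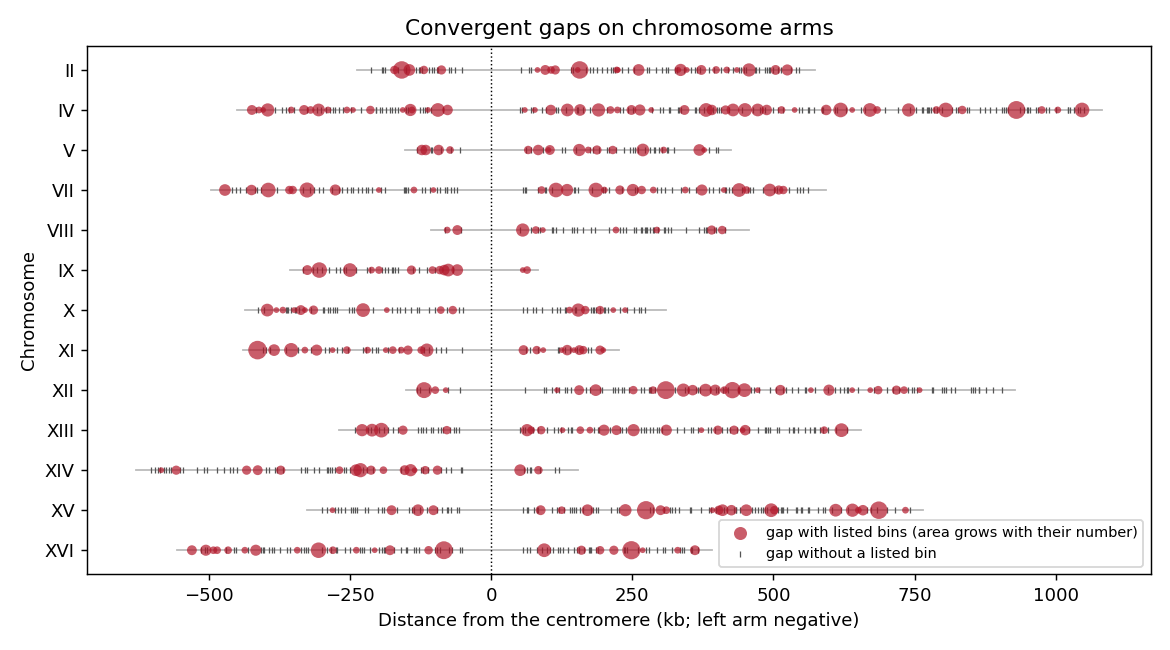
Position of each convergent arm gap relative to its centromere (x axis, kb) on 13 chromosomes (y axis). Red circles are the 294 gaps with listed bins, with an area that grows with their number up to 25, and ticks are the 889 gaps without; circles occur along the whole length of the arms.

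Lists of genes with a role in growth or meiosis were read against the 24.9% of all convergent arm gaps that held a bin. Ribosomal protein genes flanked 59 such gaps, of which 11 (18.6%) held bins with a median of 0.51, led in the authors' deposited table by KIN4/RPL33B (0.65, adjusted p 0.00239) and SUB2/RPS16B (0.62, adjusted p 0.00712). Glycolytic genes flanked 6 gaps and 4 held bins, those beside HXK2 (0.68), FBA1 (0.56), PYK2 (0.51) and TPI1 (0.52) in the authors' deposited table, whereas the gaps beside TDH3 and ENO1 held none. The median gap was 298 bp for ribosomal protein genes and 308.5 bp for glycolytic genes, against 213 bp for all. Of all convergent gaps, 30.5% of those of 201 to 300 bp and 35.1% of those of 301 to 500 bp held a bin. Among genes for acetate use and gluconeogenesis 1 of 3 gaps held bins, that of PCK1, for phosphoenolpyruvate carboxykinase, with 0.68 in the authors' deposited table (adjusted p 0.00662). Of 7 gaps beside early meiotic genes 1 held bins, beside UME6, a regulator of these genes, with 0.51 in the authors' deposited table (adjusted p 0.0215). The gaps beside MSH5, ZIP1, HOP1, DMC1, HOP2 and REC104, which act in recombination and synapsis, held none, nor did the 2 beside the cohesin loader genes SCC2 and SCC4. For gaps without a listed bin, the table does not separate unchanged from untested ones.

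The values next to the limits of the rule are a description. The 3 convergent bins nearest to a centromere had 0.64, 0.68 and 0.66, all in ALG12/SSK2, and the 3 just left out for it had 0.45, 0.51 and 0.43 in ARP2/MPS1 in the authors' deposited table. Nearest to a chromosome end lay MGA2/LYS1 on IX with 0.50, 0.54 and 0.50, and just left out lay RSC9/ERG13 with 0.58 and 0.65 and YHL041W/ARN1 with 0.58 in the authors' deposited table. At the tRNA limit the authors' deposited table had 0.62 and 0.61 in EMT2/TYE7 and 0.48 in MNC1/MUM2 inside, and 0.52, 0.59 and 0.51 outside. Nearer to the centromeres of the same 13 chromosomes, convergent bins were 38 positive and 303 negative within 10 kb, 0 positive and 59 negative at 10 to 20 kb, and 38 positive and 0 negative at 20 to 50 kb. The share of convergent positions listed was 47.5%, 12.04% and 2.42% in these zones.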

How the data were processed

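The authors compared 3 ctf19-9A and 3 WT samples in bins of 20 bp, and the deposited log2 fold change, shrunken log2 fold change, p-value and false discovery rate (here the adjusted p) are theirs, per the file headers. Per the submitters' processing notes, FastQC 0.11.9, Bowtie2 2.5.0, deepTools 3.4.3, DESeq2 and the builds R64 and sacCer3 were used; the sources used here give no roles, settings, tested bins or depth per sample. Only bins with a false discovery rate under 0.05 are listed.

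Bins were joined to 6431 R64 RefSeq genes by coordinates (Python 3.11.15, pandas 2.3.3, SciPy 1.17.1), with strand read from systematic names. Chromosome ends were the last gene or bin. The SE was the absolute log2 fold change divided by the normal quantile that matches its p-value. The classification was tested on simulated data, and the arithmetic of the SE on simulated normal p-values. The SE takes for granted that the authors' p-values come from a normal test of the unshrunken log2 fold change, which was not tested. Gaps named were those with the smallest adjusted p (12), the largest best value (8), the most bins (6) and the best of each chromosome, with up to 4 members of each gene list, all fixed list members beside a gap being counted. Members, lists and this rule were chosen with earlier results of these data known. The flanking gene length comparison was added after the values were seen. No sequence was used here. The alternatives are given in the closing section.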

Additional observations from a re-analysis of the deposited data

How the results depend on the processing

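No paired analysis was possible because the deposited table has no values per sample; leaving out a replicate and the A+T share of bins were likewise not run. With a false discovery rate under 0.01, 427 convergent bins in 8.28% of gaps were left, and the bins per kb of convergent over gene sequence were 15.9 times (3′ part) and 132 times (5′ part), against 8.05 and 54.3 times at 0.05. Counted as gaps with a bin in place of bins per kb, convergent exceeded tandem 1.55 times and divergent 2.46 times, against 3.97 and 8.60 times. Of convergent gaps of at least 100 bp, 27.5% held a bin. The central zone held 34.7% of the best bins of each gap, against 37.6% of all bins. Other settings left the count of bins between 1590 and 1894, the median between 0.41 (shrunken) and 0.61 (false discovery rate under 0.01), and the difference from tandem and divergent bins negative, at -0.12 to -0.02. Depth is unknown, and untested bins cannot be told from unchanged ones.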
